A study of Mus musculus with 6 samples.

Results

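Fatty acid synthesis genes were examined in mouse liver after partial hepatectomy (PHX), an operation that takes out liver lobes and sets off regrowth of those left. The 10 genes were Acly, Me1, Acaca, Acacb, Fasn, Elovl6, Scd1, Thrsp, Srebf1 and Mlxipl, chosen by name as enzymes and regulators of the pathway. Each matched 1 row of the 12027 rows of the count table, by Ensembl identifier, and all 10 held at least 1 CPM, the count scaled to a library of 1e6 counts, in at least 1 library.

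Messenger RNA of whole liver was sequenced from male C57BL/6 mice, 8 weeks old, in 6 groups, all of which had undergone PHX. The groups were OGT-KO (OGT-/y) and OGT control (OGTfl/y) at 28 days, OGA-KO (OGA-/-) and OGA control (OGAfl/fl) at 14 days, and OGA-KO and OGA control at 28 days. OGT attaches the sugar O-GlcNAc to proteins and OGA removes it, and per the labels both deletions were restricted to hepatocytes. The promoter that drove the deletion is not given in the sources used here, and OGT-KO and OGT control livers at 14 days were not analysed here. Each group was 1 library, made from RNA of 3 mice pooled in equal amounts, so no difference below has a replicate check. The controls carry the floxed alleles, and liver without PHX was not analysed here.

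In the liver, de novo lipogenesis turns citrate from sugar breakdown into fatty acids in the cytosol. Acly splits citrate into acetyl-CoA, the acetyl-CoA carboxylases make malonyl-CoA, Fasn joins these units to palmitate, and Elovl6 and Scd1 lengthen and desaturate it. The programme is known to be switched on after feeding by insulin, through the SREBP-1c form of Srebf1, and by glucose, through ChREBP, which is encoded by Mlxipl.

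Total counts ranged from 20433100 in OGT-KO to 29327722 in OGA-KO at 14 days. The level of Oga was 10.4 CPM in OGA-KO and 62.2 CPM in OGA control at 14 days, and 12.8 CPM in OGA-KO and 67.2 CPM in OGA control at 28 days, and its OGA-KO effect passed the edgeR test (adjusted p = 0.00615). Ogt was at 43.2 CPM in OGT-KO and 58.0 CPM in OGT control (log2 ratio -0.43, edgeR adjusted p = 0.0144). Its raw counts were 1205 in OGT-KO and 1339 in OGT control, so the gene's total is at best a weak check of the OGT-KO label, since the deleted part of the gene is not given in the labels. The 14 hepatocyte markers, albumin (Alb) among them, summed to 90612.8 CPM in OGT-KO and to between 132304.4 and 156312.1 CPM in the other 5 libraries. The OGA-KO library of 28 days stood apart by pancreatic acinar genes, which summed to 158 CPM there and to between 0.287 and 0.666 CPM elsewhere. Of 9 of them 2, Ctrb1 and Pnlip, rose in the edgeR test of the OGA-KO effect, against 3 of all 12027 genes that rose. That effect is fitted over both times, while the acinar genes summed to 0.666 CPM in OGA-KO at 14 days, so these calls rest on 1 library.

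Promoter windows from RefSeq (build GRCm38.p6) matched 9 of the 10 genes, and the sequences below are the 250 bases before the annotated start, 5′ to 3′ on the gene's strand. They are shown for Fasn, the synthase of the pathway, and for the genes of its transcription factors, Mlxipl and Srebf1. Capitals mark matches, on either strand, to the searched motifs. The count tables give no coordinates and were made on another build.
Fasn, chr11:120824548-120824797, minus strand: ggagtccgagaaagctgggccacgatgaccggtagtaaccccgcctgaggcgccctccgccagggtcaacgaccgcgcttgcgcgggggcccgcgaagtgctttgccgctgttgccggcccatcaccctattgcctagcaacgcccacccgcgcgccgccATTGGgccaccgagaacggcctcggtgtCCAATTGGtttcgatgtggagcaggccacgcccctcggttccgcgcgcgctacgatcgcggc
Mlxipl window 1, chr5:135089640-135089889, plus strand: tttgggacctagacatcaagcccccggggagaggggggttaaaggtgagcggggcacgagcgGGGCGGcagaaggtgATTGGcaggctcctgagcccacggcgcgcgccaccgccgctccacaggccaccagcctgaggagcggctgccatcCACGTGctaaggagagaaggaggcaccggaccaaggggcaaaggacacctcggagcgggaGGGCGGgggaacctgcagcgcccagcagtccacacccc
Mlxipl window 2, chr5:135106641-135106890, plus strand: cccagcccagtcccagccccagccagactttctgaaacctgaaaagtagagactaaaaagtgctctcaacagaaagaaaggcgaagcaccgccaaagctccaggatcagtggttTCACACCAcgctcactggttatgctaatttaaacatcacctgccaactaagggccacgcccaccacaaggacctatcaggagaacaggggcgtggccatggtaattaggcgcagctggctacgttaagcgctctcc
Srebf1 window 3, chr11:60210472-60210721, minus strand: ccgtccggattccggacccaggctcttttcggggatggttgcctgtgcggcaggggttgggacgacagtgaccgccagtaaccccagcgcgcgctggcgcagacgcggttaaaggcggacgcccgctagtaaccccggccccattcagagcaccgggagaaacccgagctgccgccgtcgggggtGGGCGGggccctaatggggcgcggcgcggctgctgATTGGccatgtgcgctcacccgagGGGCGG

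The motifs were searched in windows of 300 bases, 250 before and 50 after each start. The CCAAT box (CCAAT), the site of the factor NF-Y, occurred in 8 of the 13 windows of these genes, which belong to 7 of the 9 genes, and in 37.4% of all 32851 windows of the table. In Fasn it stood at positions -62, -59 and -90 from the start, the first 2 of which overlap. The E-box CACGTG, at position -98 of Mlxipl window 1, was found in no other window of the 9 genes and in 7.15% of all windows. The sterol regulatory element core TCACNCCA was found at position -136 of Mlxipl window 2 and in 4.36% of all windows. The carbohydrate response element was in none of the 13 windows of these genes and in 0.557% of all windows. At that low share its absence does not set these genes apart from others. Sequence outside the windows was not searched, and Scd1 had no window. The GC box GGGCGG was in 5 of the 13 windows and in 35.7% of all windows, with matches at -65 and -6 in Srebf1 window 3. These matches describe letters and are not shown to be bound.

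In OGT-KO, 9 of the 10 genes fell in the edgeR test and 1, Srebf1, did not pass it. The test was a quasi-likelihood fit over all 6 libraries with a Benjamini-Hochberg adjusted p under 0.05 over all genes, and 26.6% of all genes fell and 26.1% rose in it. By the size of the ratio, 8 of the 10 genes were at least 2-fold lower in OGT-KO, against 11.7% of all genes that were at least 2-fold lower. The level in the OGT-KO library was below that of all 5 other libraries for 9 of the 10 genes, against 36.7% of all genes. The median log2 ratio of the 10 genes was -2.0, and the median over all genes was 0. The test had 1 residual degree of freedom, its spread came from the OGA libraries, and the OGT libraries were assumed to vary alike. In these bulk samples fewer cells of a type and less RNA per cell cannot be told apart.

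**Figure D1:**
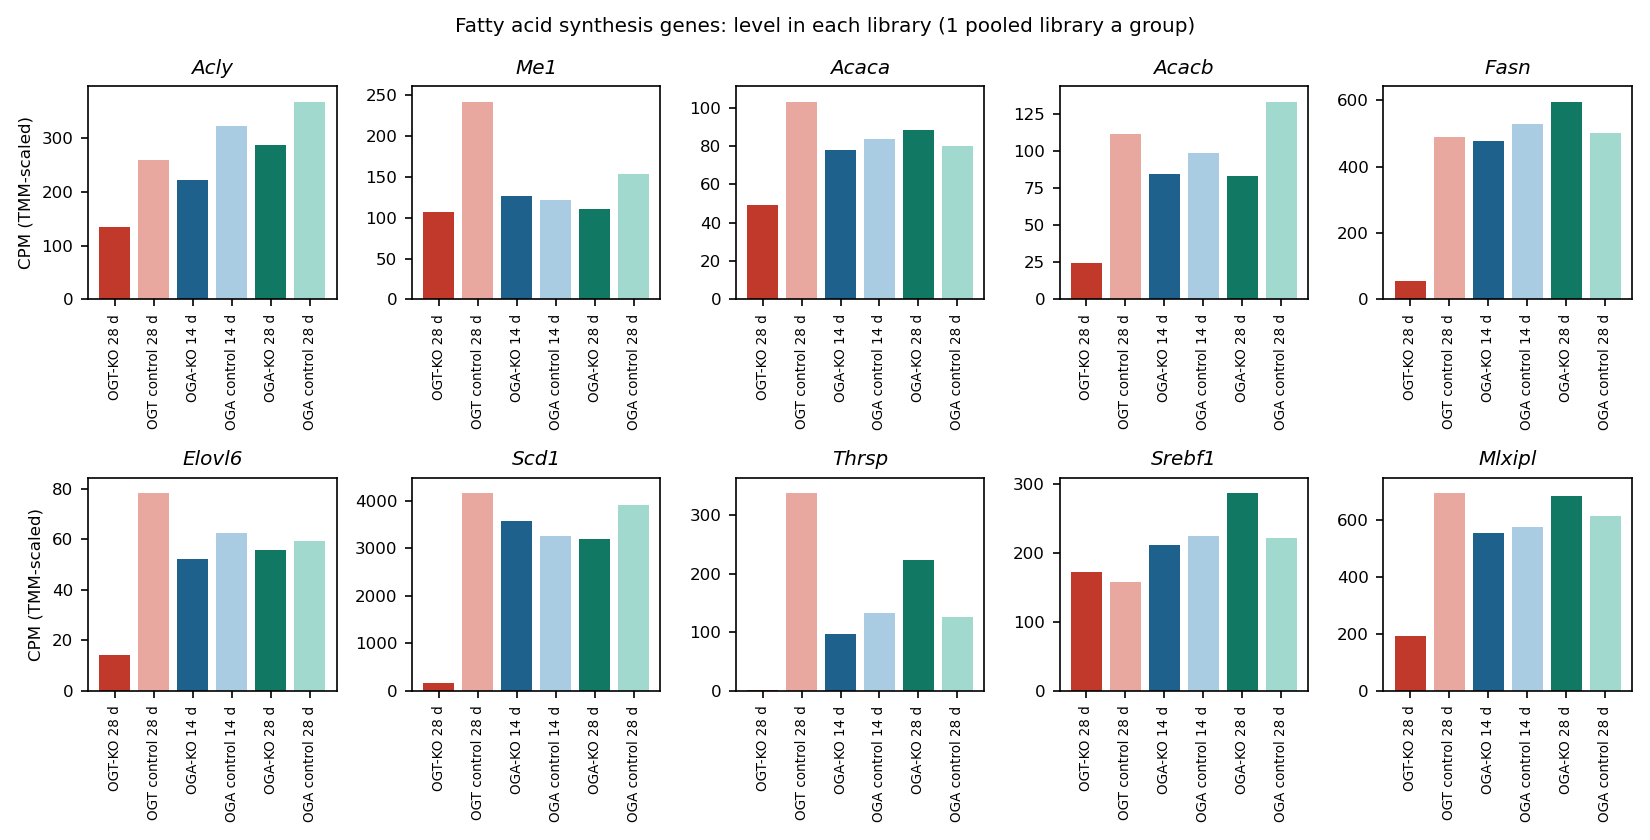
Level of each of the 10 genes in each of the 6 pooled libraries, as CPM on TMM-scaled library sizes, with 1 bar a library and each axis starting at 0. The OGT-KO bar is the lowest in 9 panels; in the Srebf1 panel OGT-KO stands at 172.2 CPM and OGT control at 157.7 CPM.

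Both genes that supply acetyl units and reducing power fell in OGT-KO. Acly, which makes cytosolic acetyl-CoA from citrate, was at 135.1 CPM in OGT-KO and 258.1 CPM in OGT control. In the OGA line it was at 221.0 CPM in OGA-KO and 321.9 CPM in OGA control at 14 days, and 287.0 CPM in OGA-KO and 366.2 CPM in OGA control at 28 days. OGT-KO was lowest of the 6 libraries, and both OGA-KO libraries lay below their own controls. The OGT-KO log2 ratio was -0.93 (95% counting interval -0.99 to -0.88), and Acly fell in the edgeR test (adjusted p = 0.00211).

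Me1, a malic enzyme that yields NADPH, was at 107.2 CPM in OGT-KO and 241.4 CPM in OGT control. Its other levels were 126.2 CPM in OGA-KO and 121.2 CPM in OGA control at 14 days, and 110.8 CPM in OGA-KO and 153.7 CPM in OGA control at 28 days. The OGT control library was the highest and OGT-KO lay only just below the rest, at 96.7% of the lowest of the other 5 libraries. Me1 fell in OGT-KO against its own control, by 1.17 on the log2 scale (interval -1.24 to -1.11, edgeR adjusted p = 0.00527). When the fit had no term for the line, so that OGT-KO was set against all control libraries, neither Me1 (log2 -0.76, edgeR adjusted p = 0.239) nor Acly (log2 -1.27, edgeR adjusted p = 0.0501) passed.

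The acetyl-CoA carboxylases both fell, with the lower ratio for Acacb. The cytosolic enzyme that commits acetyl-CoA to synthesis is encoded by Acaca, which was at 49.2 CPM in OGT-KO and 103.0 CPM in OGT control. In OGA-KO and OGA control it was at 78.0 and 83.4 CPM at 14 days, and at 88.2 and 80.2 CPM at 28 days. The OGT-KO library stood below a narrow range, since the other 5 libraries spanned 1.32-fold. Its log2 ratio in OGT-KO was -1.07 (interval -1.16 to -0.97, edgeR adjusted p = 0.00152).

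Acacb encodes the carboxylase at the mitochondrial outer membrane, whose malonyl-CoA is known to restrain fatty acid import into mitochondria. It was at 24.8 CPM in OGT-KO and 111.2 CPM in OGT control. In OGA-KO and OGA control its levels were 84.3 and 98.3 CPM at 14 days, and 83.3 and 133.1 CPM at 28 days. OGT-KO held 22.3% of its control's level (log2 ratio -2.16, interval -2.29 to -2.04, edgeR adjusted p = 0.00062). Acaca shares its locus with Gm11437 on the opposite strand, whose row was at 0.86 CPM in OGT-KO and 6.54 CPM in OGT control; the strand setting of the counting was not stated, so reads of the pair may be shared.

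Fasn, the multi-domain enzyme that builds palmitate, was at 56.2 CPM in OGT-KO and 489.8 CPM in OGT control. Its levels were 476.3 CPM in OGA-KO and 530.1 CPM in OGA control at 14 days, and 595.7 CPM in OGA-KO and 500.3 CPM in OGA control at 28 days. The 5 libraries other than OGT-KO spanned only 1.25-fold, and OGT-KO was at 11.8% of the lowest of them. Fasn fell by 3.12 on the log2 scale (interval -3.20 to -3.05, edgeR adjusted p = 0.000224).

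The genes that finish the fatty acid were also lower. Elovl6, which elongates palmitate to stearate, was at 14.4 CPM in OGT-KO and 78.2 CPM in OGT control. Its levels in OGA-KO and OGA control were 52.4 and 62.5 CPM at 14 days, and 55.8 and 59.3 CPM at 28 days. The gene fell to 18.4% of its control in OGT-KO (log2 ratio -2.44, interval -2.60 to -2.29, edgeR adjusted p = 0.000158).

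Scd1, the desaturase that makes oleate from stearate, was at 167.8 CPM in OGT-KO and 4160.5 CPM in OGT control. The OGA libraries held 3570.3 CPM in OGA-KO and 3260.1 CPM in OGA control at 14 days, and 3192.9 CPM in OGA-KO and 3904.5 CPM in OGA control at 28 days. The OGT-KO library was far below a range of 1.3-fold over the other 5, at 4.03% of its control (log2 ratio -4.63, interval -4.67 to -4.59, edgeR adjusted p = 0.000127). Scd2 and Scd3, close relatives with rows of their own, did not share one direction. Scd2 rose, at 38.6 CPM in OGT-KO and 5.72 CPM in OGT control (log2 ratio 2.74, edgeR adjusted p = 0.000559), and Scd3 fell, at 1.79 CPM in OGT-KO and 5.81 CPM in OGT control (log2 ratio -1.65, edgeR adjusted p = 0.00392). Reads of near-identical stretches of these genes could have been split by the authors' counting.

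Thrsp, also called Spot 14, is a small protein induced by thyroid hormone and carbohydrate that is tied to lipogenesis, and it had the lowest ratio. OGT-KO had 30 counts (1.07 CPM) and OGT control had 7786 counts (337.3 CPM). Its levels were 97.5 CPM in OGA-KO and 133.2 CPM in OGA control at 14 days, and 223.3 CPM in OGA-KO and 126.1 CPM in OGA control at 28 days. Thrsp was near the bottom of the measured range in OGT-KO, and it varied more than the other 9 genes among the remaining libraries, over 3.46-fold. The log2 ratio was -8.19 (interval -8.86 to -7.78), and the gene fell in the edgeR test (adjusted p = 0.000472).

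Of the transcription factors, Mlxipl fell and Srebf1 did not pass the test. Mlxipl, which encodes ChREBP, was at 193.9 CPM in OGT-KO and 692.8 CPM in OGT control. Its levels in OGA-KO and OGA control were 554.3 and 574.2 CPM at 14 days, and 683.8 and 614.0 CPM at 28 days. OGT-KO lay at 35.0% of the lowest other library, and the other 5 spanned 1.25-fold. The log2 ratio was -1.84 (interval -1.88 to -1.79, edgeR adjusted p = 0.00032).

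Srebf1, which encodes SREBP-1a and SREBP-1c in 1 row, was at 172.2 CPM in OGT-KO and 157.7 CPM in OGT control. Its levels were 211.3 CPM in OGA-KO and 224.8 CPM in OGA control at 14 days, and 286.3 CPM in OGA-KO and 221.7 CPM in OGA control at 28 days. Both OGT libraries lay below all 4 OGA libraries, and OGT-KO was the higher of the 2. The log2 ratio was 0.13 (interval 0.06 to 0.19, edgeR adjusted p = 0.569), and on plain library totals it was 0.50 (edgeR adjusted p = 0.0553). Without the line term the fitted effect was -0.24, so no direction held across the fits. Srebf1 overlaps Rai1 on the opposite strand, whose row was at 64.0 CPM in OGT-KO and 37.3 CPM in OGT control (log2 ratio 0.78), so that here too reads may be shared.

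**Figure D2:**
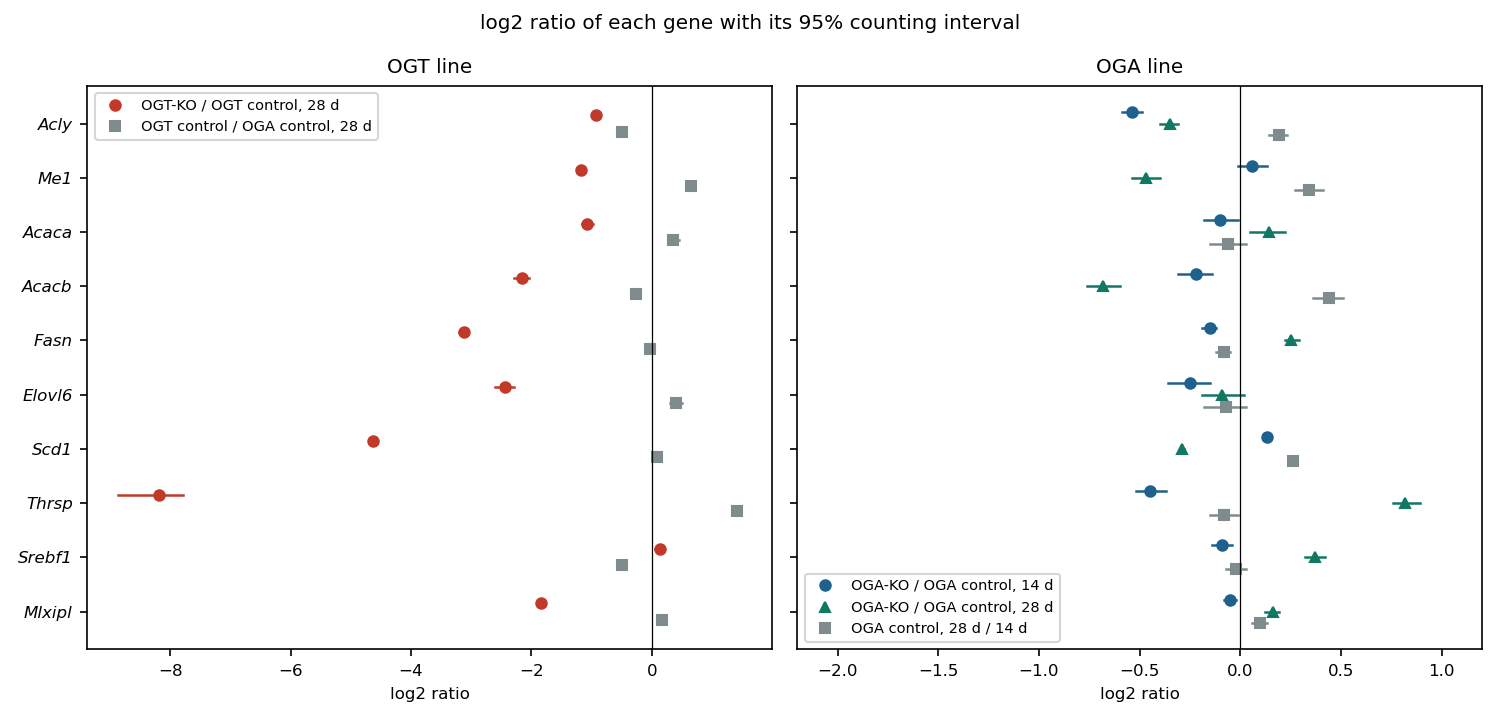
Log2 ratio of each gene (horizontal axis) with its 95% counting interval, for the OGT line with the ratio of the control lines (left) and for the OGA line with the ratio of the control times (right). In OGT-KO the points lie between -8.19 and 0.13, and in OGA-KO between -0.68 and 0.82; the scales of the 2 panels differ.

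The scale matters for the size of these ratios. On library totals the median of all genes in the OGT pair moved to 0.37, and each of the 10 ratios moved up with it, so that 6 of the 10 were then at least 2-fold lower. Acly was at -0.56, Me1 at -0.80 and Acaca at -0.69 on that scale, and all 9 genes still fell in the edgeR test. The hepatocyte markers had a median log2 ratio of -0.60 in OGT-KO, and 10 of 14 fell, against 26.6% of all genes. Set relative to that median, Thrsp was at -7.59, Scd1 at -4.03, Fasn at -2.52, Elovl6 at -1.84, Acacb at -1.56 and Mlxipl at -1.24. On the same scale Me1 was at -0.57, Acaca at -0.46, Acly at -0.33 and Srebf1 at 0.73.

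Most matrix, cholangiocyte and macrophage markers rose in OGT-KO, in the direction opposite to the fatty acid synthesis genes. Of all genes 26.1% rose and 26.6% fell in the same edgeR test. All 13 matrix and stellate cell markers rose in OGT-KO, and summed to 2589.4 CPM there and 305.1 CPM in OGT control, with the OGA libraries between 186.6 and 266.3 CPM. Of 7 cholangiocyte markers 6 rose (495.3 CPM in OGT-KO, 100.9 CPM in OGT control), and of 10 macrophage markers 9 rose (1287 CPM in OGT-KO, 306.2 CPM in OGT control). All 7 proliferation markers rose (174.5 CPM in OGT-KO, 21.7 CPM in OGT control). Of 9 endothelial markers 3 rose and 3 fell (396.7 CPM in OGT-KO, 257.0 CPM in OGT control), not far from the shares of all genes. The part of these cells in the fall of the fatty acid synthesis genes was not tested. Of 8 adipocyte markers, which bear on attached fat tissue, only Car3 and Cfd had a row. Car3, which hepatocytes express too, fell to 8.45 CPM in OGT-KO, against 2542.6 CPM in OGT control (log2 ratio -8.22, edgeR adjusted p = 8.3e-05), and Cfd had 0 counts in both OGT libraries, while 6 of the 8 had no row. Of 9 T, B and NK cell markers 1 had a row, and it was not called.

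The make-up of the pathway's RNA differed as well as its amount. The 10 genes summed to 921.7 CPM in OGT-KO and 6630.0 CPM in OGT control, and to between 5409.6 and 6159.2 CPM in the OGA libraries. Scd1 made up 18.2% of that sum in OGT-KO, 62.8% in OGT control and 56.9% to 65.3% in the OGA libraries. The ratio of the sums in the OGT pair was -2.85 on the log2 scale, and -1.71 without Scd1. Per kilobase of exon, Scd1 was the highest in 5 libraries, at 850.5 CPM per kilobase in OGT control. In OGT-KO the order began with Mlxipl at 35.0, Scd1 at 34.3, Srebf1 at 30.6 and Me1 at 27.8 CPM per kilobase, and with 1 library these neighbours cannot be ranked beyond counting error. Thrsp was last in OGT-KO, at 0.491 CPM per kilobase, and the second in OGT control, at 154.1 CPM per kilobase.

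Other genes that feed or extend the pathway were counted in OGT-KO. For these and the lists below, 26.6% of all genes fell and 26.1% rose in the same test. Of 28 genes of sugar supply, NADPH, elongation and desaturation, 18 fell, 6 rose and 4 did not pass, with a median log2 ratio of -1.08. Pklr, the liver pyruvate kinase and a known ChREBP target, was at 23.6 CPM in OGT-KO and 366.1 CPM in OGT control (log2 ratio -3.95, edgeR adjusted p = 0.0001). Khk, which phosphorylates fructose, was at 22 CPM in OGT-KO and 330.7 CPM in OGT control (log2 ratio -3.90, edgeR adjusted p = 8.38e-05). The elongase Elovl3 was at 8.09 CPM in OGT-KO and 402.0 CPM in OGT control (log2 ratio -5.62, edgeR adjusted p = 0.00065). G6pdx, the first enzyme of the pentose phosphate pathway and a source of NADPH, rose to 46.6 CPM in OGT-KO, against 7.62 CPM in OGT control (log2 ratio 2.60, edgeR adjusted p = 0.000237). G6pdx, Scd2 and Scd3 were named after their values were seen.

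Of 9 genes of mitochondrial fatty acid synthesis, the separate route that serves lipoic acid, 5 fell and none rose (median log2 ratio -0.82), with Cbr4 at -1.73 and Ndufab1, its acyl carrier protein, at -1.25. Of 12 triglyceride synthesis genes 7 fell and 2 rose (median -0.52). Lpin1, a phosphatidate phosphatase, fell by 2.68 and Dgat2, which adds the last acyl chain, fell by 1.67 on the log2 scale, while Lpin3 rose by 1.43. Of 14 lipid droplet and lipolysis genes 6 fell and 3 rose, against 26.6% of all genes that fell and 26.1% that rose. Among them Cidec, a droplet fusion protein, rose to 75.0 CPM in OGT-KO, against 8.79 CPM in OGT control, and Fitm1, which helps droplets form, fell to 0.895 CPM in OGT-KO, against 13.2 CPM in OGT control.

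Of 18 regulators of SREBP and of lipogenic transcription 10 fell and 2 rose (median log2 ratio -0.54), against the same shares of all genes. Insig1, which holds SREBP in the endoplasmic reticulum and is itself a known SREBP target, was at 17.9 CPM in OGT-KO and 207.0 CPM in OGT control (log2 ratio -3.52, edgeR adjusted p = 0.0001). Cebpa, a liver and fat cell transcription factor, was at 157.2 CPM in OGT-KO and 726.6 CPM in OGT control (log2 ratio -2.21, edgeR adjusted p = 0.000507). Ppargc1b, a coactivator of SREBP, was at 2.65 CPM in OGT-KO and 8.62 CPM in OGT control (log2 ratio -1.67, edgeR adjusted p = 0.0195). Rxra, the partner of many nuclear receptors, fell by 1.10 on the log2 scale.

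The counts of the next 4 lists are to be read against the 26.6% of all genes that fell and the 26.1% that rose. Of 12 insulin signalling genes 4 fell and 2 rose. Irs2, an insulin receptor substrate, rose to 68.7 CPM in OGT-KO, against 14.7 CPM in OGT control (log2 ratio 2.22, edgeR adjusted p = 0.00375). Of 7 genes for the subunits of AMPK, the kinase that inactivates the carboxylases, and for the kinase Stk11, 3 rose and 3 fell. The catalytic subunit gene Prkaa2 was at -1.31, Stk11 at -1.11 and the beta subunit gene Prkab1 at 1.01. Of 10 fatty acid uptake and binding genes 3 rose and 4 fell. Lpl, which releases fatty acids from circulating triglyceride, was at 316.0 CPM in OGT-KO and 23.4 CPM in OGT control (log2 ratio 3.75, edgeR adjusted p = 8.38e-05). Fabp1, the liver fatty acid binding protein, was at 358.9 CPM in OGT-KO and 1548.9 CPM in OGT control (log2 ratio -2.11, edgeR adjusted p = 0.000146). Of 10 fasting-induced genes 2 rose and 1 fell, with a median log2 ratio of 0.16. Igfbp1, a hepatokine that insulin represses, was at 970.5 CPM in OGT-KO and 85.4 CPM in OGT control (log2 ratio 3.51, edgeR adjusted p = 0.0208).

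**Figure D3:**
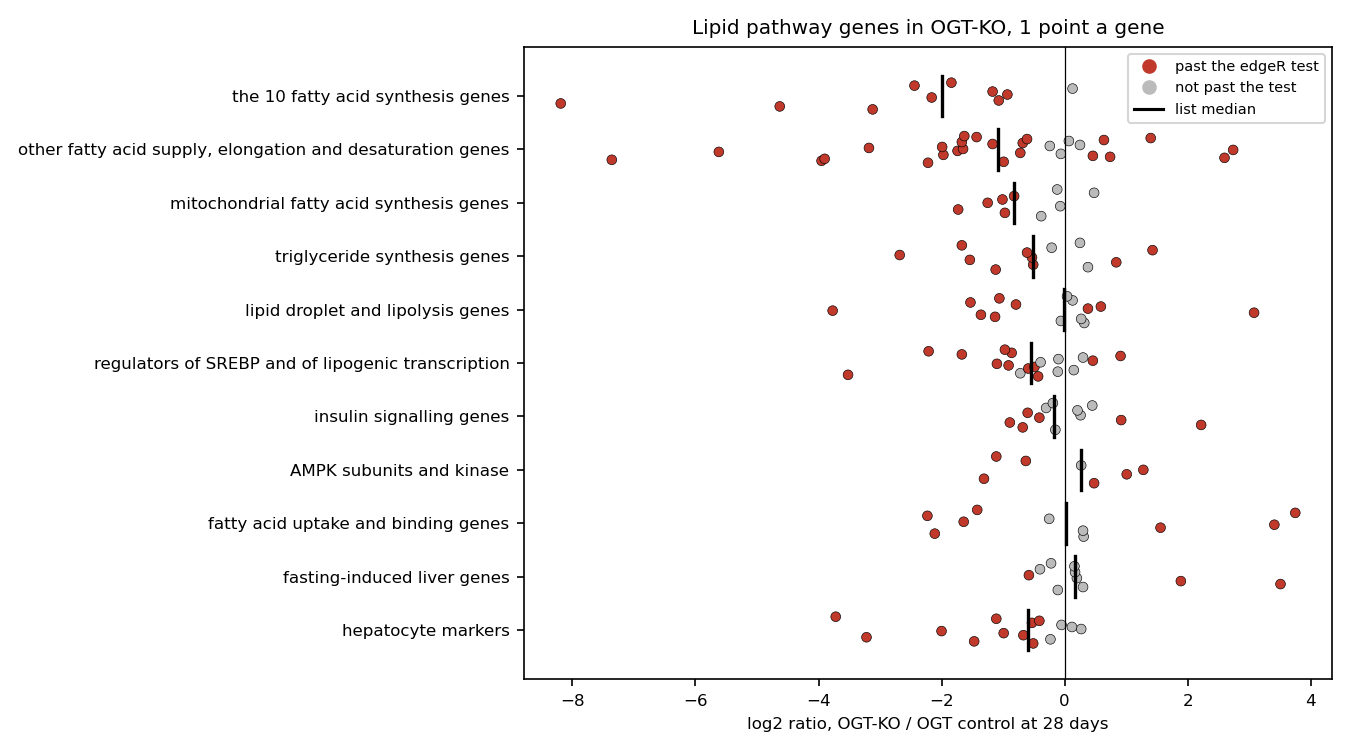
Log2 ratio of OGT-KO over OGT control at 28 days (horizontal axis) for each gene of the lipid lists and of the hepatocyte markers, 1 point a gene, red where it passed the edgeR test, with the list median as a bar. The 10 fatty acid synthesis genes have the lowest median, -2.0; the next list is at -1.08 and the hepatocyte markers at -0.60.

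In OGA-KO none of the 10 fatty acid synthesis genes passed the edgeR test or was 2-fold apart from its control. At 14 days none of the 10 was 2-fold apart, against 0.839% of all genes, and at 28 days none was, against 2.57% of all genes. The edgeR test of the OGA-KO effect over both times called 0 of the 10, and 0.0333% of all genes. At these low shares a count of 0 does not set the 10 genes apart from others. At 28 days OGA-KO held 177.1% of the control level of Thrsp and 62.6% of that of Acacb, both past 1.5-fold. Acly and Acacb, 2 of the 10, had an unadjusted p under 0.05, and DESeq2 called 0 with 2 at an unadjusted p under 0.05. Acly had a log2 ratio of -0.54 at 14 days and -0.35 at 28 days (edgeR adjusted p = 0.213). Acacb had -0.22 at 14 days and -0.68 at 28 days (edgeR adjusted p = 0.31). Thrsp had the largest ratio, -0.45 at 14 days and 0.82 at 28 days, with opposite signs. Me1 was at 0.06 at 14 days and -0.47 at 28 days, and Elovl6 at -0.25 and -0.09.

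The same comparison for the other genes gave ratios of opposite sign at the 2 times. Fasn was at -0.15 at 14 days and 0.25 at 28 days, and Scd1 at 0.13 at 14 days and -0.29 at 28 days. Srebf1 was at -0.09 at 14 days and 0.37 at 28 days, Acaca at -0.10 and 0.14, and Mlxipl at -0.05 and 0.16. By counting error alone, 8 of the 10 intervals at 14 days lay below 0 and 1 above, and at 28 days 4 lay below and 5 above. Counting intervals do not cover differences between mice or libraries. Of the adipocyte markers with a row, Cfd had 46 counts in OGA-KO and 8 counts in OGA control at 28 days (log2 ratio 2.34), and 3 counts in OGA-KO and 5 counts in OGA control at 14 days. It did not pass the edgeR test of the OGA-KO effect (adjusted p = 0.411). Car3 was at 2849.8 CPM in OGA-KO and 3971.2 CPM in OGA control at 28 days. The OGA-KO library of 28 days thus held more Cfd as well as the pancreatic acinar genes, and their part in its ratios of Thrsp and the other genes was not tested.

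The 10 genes summed to 5471.6 CPM in OGA-KO and 5409.6 CPM in OGA control at 14 days (ratio 1.01), and to 5607 CPM in OGA-KO and 6159.2 CPM in OGA control at 28 days (ratio 0.910). In the other lipid lists no gene was called in OGA-KO, against 0.0333% of all genes. At that low share the absence of a call does not set these lists apart from other genes. In the 28-day pair Elovl3 was at 271.9 CPM in OGA-KO and 670.8 CPM in OGA control (log2 ratio -1.30), and Aacs, a ketone-using synthetase, at 82.2 CPM in OGA-KO and 34.5 CPM in OGA control (1.25). Ppargc1b was at 1.5, Irs2 at -1.11 and Plin4, a droplet coat gene, at 1.16 on the log2 scale.

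In the OGA-KO library of 28 days 7 of the 15 clock genes were higher and 4 lower by 2-fold or more, against 2.57% of all genes past 2-fold in either direction. Of the 10 fasting-induced genes 2 were lower by 2-fold or more and 0 higher. None of either list passed the edgeR test of the OGA-KO effect over both times, which called only 0.0333% of all genes. Dbp, an output gene of the clock, was at 156.4 CPM in OGA-KO and 17.7 CPM in OGA control (log2 ratio 3.14), and Ciart at 21.0 CPM in OGA-KO and 0.688 CPM in OGA control (4.78). At 14 days 1 clock gene, Dbp, was past 2-fold (1.25). G6pc1, the glucose-releasing phosphatase of fasting, was at 145.3 CPM in OGA-KO and 441.1 CPM in OGA control at 28 days (-1.60), and Igfbp1 was at 1.56 at 14 days and -1.11 at 28 days. In OGT-KO, 4 of the 15 clock genes fell and none rose, against 26.6% of all genes that fell and 26.1% that rose, with Dbp at -2.49 and Nr1d1 at -1.71. Clock genes also differed between the control libraries of 28 days. In OGT control 5 of the 15 were higher and 3 lower than in OGA control by 2-fold or more. Of all genes 10.4% were past 2-fold in that comparison. The time of day of dissection and the feeding state are not given in the labels, and their part in the ratios of Thrsp and Srebf1 was not tested.

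The difference between the knockouts was tested as a contrast in the same fit, in which 22.7% of all genes were lower in OGT-KO than in OGA-KO relative to their controls. The contrast passed for 9 of the 10 genes, all lower in OGT-KO. It was largest for Thrsp (log2 -8.48, edgeR adjusted p = 0.000911), Scd1 (log2 -4.55, edgeR adjusted p = 0.000292) and Fasn (log2 -3.17, edgeR adjusted p = 0.00057). For Acly it was -0.49 (edgeR adjusted p = 0.0404), a call that library totals (log2 -0.11, edgeR adjusted p = 0.541) and DESeq2 (log2 -0.50, DESeq2 adjusted p = 0.147) did not keep. For Srebf1 it was -0.01 (edgeR adjusted p = 0.969). OGT-KO was measured at 28 days and the OGA-KO effect is a mean over 14 and 28 days.

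Libraries without a deletion also differed from each other, which gives a scale for the ratios above. OGT control and OGA control at 28 days, both at 28 days and of the same sex, age and strain, were within 2-fold for 9 of the 10 genes, and 10.4% of all genes were past 2-fold. Thrsp was the exception, at 337.3 CPM in OGT control and 126.1 CPM in OGA control (log2 ratio 1.42). Me1 stood at 0.65, Acly at -0.50 and Srebf1 at -0.49, while Fasn was at -0.03 and Scd1 at 0.09. The OGT-KO ratios of the same genes were -8.19 for Thrsp, -1.17 for Me1, -0.93 for Acly, 0.13 for Srebf1, -3.12 for Fasn and -4.63 for Scd1. On TMM-scaled libraries that of Srebf1 was smaller in size than its difference between the control libraries. Among these genes those of Me1 and Acly exceeded theirs by the least on that scale. On library totals the order of sizes changed for 2 of these genes. Me1 was at 0.88 between the controls and -0.80 in OGT-KO, and Srebf1 at -0.27 and 0.50. The order was kept for Acly, at -0.28 and -0.56, Fasn, at 0.19 and -2.75, Scd1, at 0.32 and -4.26, and Thrsp, at 1.64 and -7.85. For Acaca it was kept only narrowly, at 0.59 and -0.69. Acacb was at -0.03 and -1.79, Elovl6 at 0.62 and -2.07, and Mlxipl at 0.4 and -1.47 on library totals. OGA control at 28 days against 14 days gave ratios from -0.08 to 0.44 with none past 2-fold, against 0.927% of all genes. OGA-KO at 28 days against 14 days gave 1 gene past 2-fold, Thrsp at 1.19, against 1.32% of all genes. Both libraries of that pair carry the deletion, so it is not part of the scale from libraries without one. These comparisons share libraries with the knockout pairs and are not independent of them.

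Over the 6 libraries the genes were not alike in profile. Each gene's log2 CPM was centred on its own mean, and the distance from the mean profile of the 10 was the root mean square difference over the 6 libraries. Elovl6 was nearest, at 0.13, followed by Acacb at 0.23, Mlxipl at 0.25 and Fasn at 0.36. Thrsp was farthest, at 1.87, with Srebf1 at 0.81, Scd1 at 0.79 and Me1 at 0.76. Among 9164 genes with at least 10 CPM in 1 library, predicted genes passed over, the 6 nearest to that mean profile were Suox at 0.08, Cyp2d10 and Fzd8 at 0.10, Slc25a21 and Ttc39c at 0.11, and Ugt2b36 at 0.12. Suox, the sulphite oxidase gene, was at 28.9 CPM in OGT-KO and 192.3 CPM in OGT control, and between 140.9 and 159.4 CPM in the OGA libraries. Ugt2b36, a glucuronosyltransferase gene, was at 102.5 CPM in OGT-KO and 665.9 CPM in OGT control.

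**Figure D4:**
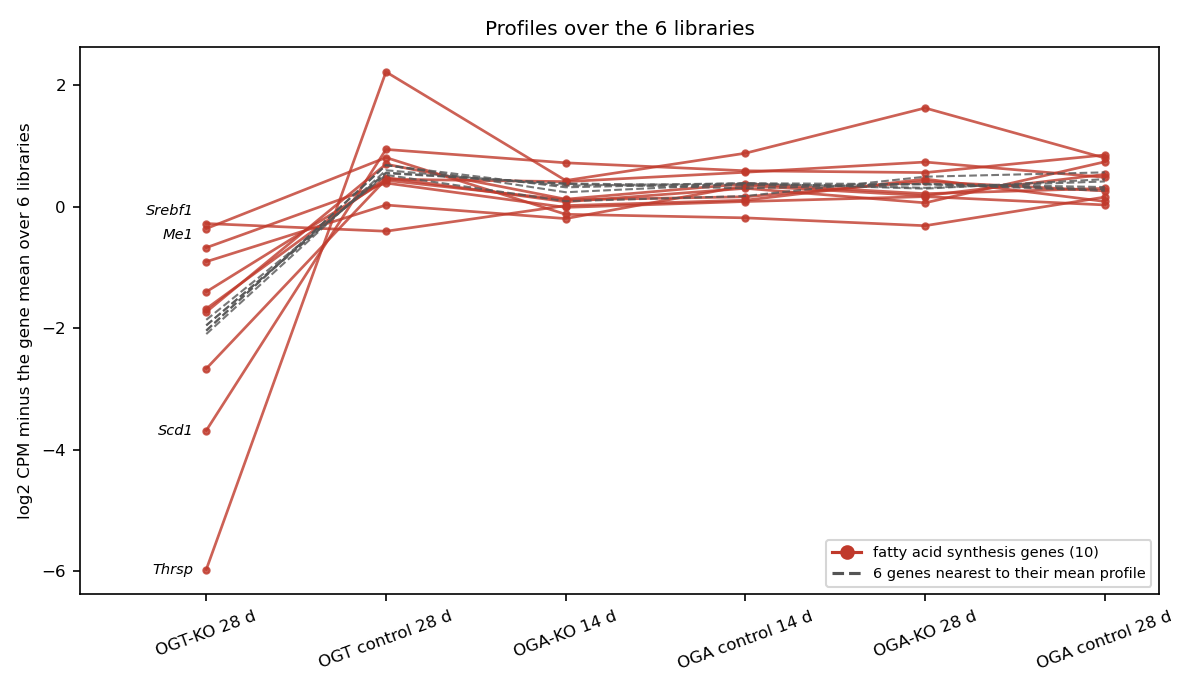
Centred profiles of the 10 fatty acid synthesis genes (red) and of the 6 genes nearest to their mean profile (grey, dashed); the vertical axis is log2 CPM minus the gene's mean over the 6 libraries, and lines only join the points of a gene. Thrsp lies lowest in OGT-KO and highest in OGT control, Srebf1 is lower in OGT control than in OGT-KO, and the grey lines run through the middle of the red ones.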

How the data were processed

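Whole-liver mRNA libraries (Tecan Universal Plus mRNA-seq, per the labels' protocols) were run in 2 lanes. STAR, Subread, edgeR and mm39 are named in the submitters' processing notes; versions, strand setting and row filter are not given in the sources used here. The authors deposited raw counts per Ensembl gene, 1 column a library. The deposited CPM were counts over the column total (over a larger divisor in the OGT columns) without a composition factor, and served only as a check. All 12027 rows entered the fits, and 12019 had a symbol.

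CPM on TMM effective library sizes and log2 ratios with a prior count of 2 were computed from the counts (edgeR 4.0.16, R 4.3.3). Each ratio has an exact Clopper-Pearson 95% interval (scipy 1.17.1), which covers counting error only, as does the floor of 3 counts (0.107 to 0.130 CPM). The size rule was 2-fold with at least 1 CPM in the higher library. The edgeR quasi-likelihood test fitted line, day, OGA-KO and OGT-KO over all 6 libraries, with Benjamini-Hochberg adjustment over all genes at 0.05. It was tested on simulated data that took their spread from this same fit and held changes in OGT-KO only. That simulation cannot check the assumption that the OGT libraries vary alike. Only genes past the edgeR test are said to have risen or fallen. DESeq2 1.42.0, other scalings, filters, folds and model terms were alternatives.

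The genes and lists were chosen with earlier results of these data known. All 10 genes are named; from each other list up to 4 genes with at least 10 CPM and the largest OGT-KO ratios, and for OGA-KO up to 3 past 2-fold. Some genes that this rule names are not reported here.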

Additional observations from a re-analysis of the deposited data

Results flagged for a closer look

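For 9 genes the effect of OGT-KO differed from that of OGA-KO in the edgeR contrast over the 6 libraries. All 9 were lower in OGT-KO, against 22.7% of all genes. The log2 differences, OGT-KO effect minus OGA-KO effect, were -8.48 for Thrsp, -4.55 for Scd1, -3.17 for Fasn, -2.27 for Elovl6, -1.89 for Mlxipl, -1.71 for Acacb, -1.09 for Acaca, -0.96 for Me1 and -0.49 for Acly. Srebf1, at -0.01, did not pass. The calls of Acly, Me1 and Acaca were not kept by every alternative, as given below.

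For 6 genes the OGA-KO log2 ratio had opposite signs at the 2 times. It was -0.15 at 14 days and 0.25 at 28 days for Fasn, and 0.13 at 14 days and -0.29 at 28 days for Scd1. Thrsp was at -0.45 at 14 days and 0.82 at 28 days, and Srebf1 at -0.09 at 14 days and 0.37 at 28 days. Acaca was at -0.10 at 14 days and 0.14 at 28 days, and Mlxipl at -0.05 at 14 days and 0.16 at 28 days. These differences between the times were not tested, since each is a ratio of 1 library to 1 library. The OGA-KO library of 28 days also held the pancreatic acinar genes and the clock gene ratios given above, whose part in these signs was not tested.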

How the results depend on the processing

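Of 58 recomputed counts of genes, 56 stayed within 1.5 times the reported count. That range takes in the change from 8 to 6 genes past 2-fold in OGT-KO on library totals. It also takes in the change from 9 to 6 genes in the contrast between the knockouts without the line term. The 6 counts without a CPM minimum and the 6 at 5 CPM could not change, since all 10 genes exceeded 5 CPM in the higher library of each pair. With a 1.5-fold limit, OGA-KO at 28 days gave 2 genes (1 lower, 1 higher) in place of 0, and OGT control against OGA control gave 2 in place of 1. No direction was reversed among the 9 called genes. Of 190 recomputed ratios of single genes 156 stayed within their counting interval and 34 moved out of it. Of these 34, 23 were on library totals and 10 on the scale of the hepatocyte markers. Of 210 recomputed effects of single genes 200 kept their side of the threshold and 10 lost it. These 10 were Acly and Me1 for OGT-KO without the line term, and in the contrast between the knockouts Acaca without the line term (edgeR adjusted p = 0.0659), Acly under library totals (0.541), DESeq2 (0.147), no line term (0.101), no day term (0.153) and without both the day term and the OGA-KO library of 28 days (0.205), and Me1 under library totals (0.0875) and without the line term (0.634); the cause was not tested. OGT-KO called 9 of the 10 genes under every alternative but the one without the line term, which called 7. Over all genes it called 6332, against 2902 by DESeq2 and 3035 without the line term; the OGA-KO effect called 4 genes, against 36 by DESeq2 and 0 without the line term. The low-count filter removed 0 genes, so the 3 counts and 30 effects refitted without it repeat the main fit and do not test it. The alternative without both the day term and the OGA-KO library of 28 days, and the scale of the hepatocyte markers, were chosen after seeing the data. No paired analysis was possible because each group had 1 library and the labels give no replicate numbers; for the same reason no replicate could be left out. Depth limits Thrsp most, at 30 counts in OGT-KO.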
